A study of Mus musculus with 23 samples.

Results

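The genes described here act at the membrane and in the gas transport of red cell precursors: Epor, Rhag, Aqp1, Slc14a1, Car1, Car2 and Mfsd2b. They are 7 of the 19937 genes measured in progenitors sorted from the marrow of mice with intact or deleted C/EBPα. They were chosen by symbol, and each is read through the probe set that carries its symbol alone and has the highest mean over all 23 Affymetrix arrays. Values are log2 expression levels, and each gene is compared only with itself, because probe sets differ in brightness.

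Cebpa had been deleted with the Mx.1-Cre transgene, which is switched on by interferon, in mice with 2 floxed alleles (Mx.1-Cre+ C/EBPa f/f). The controls carried the floxed alleles without Cre and received the same 3 injections of poly I:C. Common myeloid progenitors (CMPs, gated as lineage-negative, c-kit+, Sca1-, CD34+ and low for Fcγ receptors) gave 4 control and 4 knockout samples, and granulocyte-macrophage progenitors (GMPs) 3 control samples, all 5 days after poly I:C. For the remaining arrays, irradiated congenic mice received KSLs (lineage-negative, Sca-1+, c-kit+ marrow cells, rich in stem cells) that had been cultured in stem cell factor, thrombopoietin and IL-3 and infected with MSCV-MLL-AF9-IRES-GFP, a retrovirus carrying a leukaemia fusion and GFP, and support marrow with them. GMPs of the resulting leukaemias (L-GMPs) of control cells numbered 2 samples of primary and 2 of secondary recipients. The labels do not say which of these 4 share a donor or a leukaemia, so they may be fewer independent leukaemias than arrays. Knockout L-GMPs came from 1 primary recipient, in which leukaemia arose after injection of vectors expressing IL-3 and GM-CSF, and from 2 secondary recipients of that same leukaemia, so the 3 arrays stand for 1 leukaemia. Knockout recipients without leukaemia gave GFP+ KSLs from 2 animals and GFP+ CMPs from those 2 and 1 more, here called the MLL-AF9 knockout progenitors. Where no animal is named in the labels, the p-values measure the spread between samples, part of which may be technical.

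As red cell precursors commit, they display the erythropoietin receptor (Epor), which signals through JAK2 and STAT5 for survival and division. They also build the membrane proteins that later move gases, water and urea: Rhag, the Rh-associated glycoprotein that carries ammonia and carbon dioxide, Aqp1, a water channel, and Slc14a1, the urea transporter that bears the Kidd blood group. Car1 and Car2 are the cytosolic carbonic anhydrases of red cells, which interconvert carbon dioxide and bicarbonate, and Mfsd2b exports sphingosine 1-phosphate from red cells and platelets. Epor and Car2 also appear in other marrow cells, and Aqp1 is abundant in capillary endothelium.

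Because the genes other than Car2 moved together over the groups, the 250 bases before the start site are shown for 4 of the 7, as RefSeq gives them on GRCm38.p6. Those of Slc14a1, Car1 and Car2 are not analysed here. Each is written 5′ to 3′ on the gene's own strand, and capitals mark a GATA motif (the letters AGATAA, the form TGATAA, the form AGATAG or the form TGATAG, on either strand), bound by GATA factors of the erythroid lineage.
Epor, chr9:21963577-21963826, minus strand: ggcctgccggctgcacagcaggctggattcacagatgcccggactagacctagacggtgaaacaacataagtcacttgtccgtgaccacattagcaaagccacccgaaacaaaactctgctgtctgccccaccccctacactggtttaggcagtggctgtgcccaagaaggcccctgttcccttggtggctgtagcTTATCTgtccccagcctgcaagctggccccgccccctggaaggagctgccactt
Rhag, chr17:40810899-40811148, plus strand: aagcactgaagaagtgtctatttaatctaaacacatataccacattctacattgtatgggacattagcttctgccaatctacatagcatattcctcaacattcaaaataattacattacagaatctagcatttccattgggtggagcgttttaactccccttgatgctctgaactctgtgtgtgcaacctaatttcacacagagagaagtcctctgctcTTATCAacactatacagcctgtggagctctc
Aqp1, chr6:55336049-55336298, plus strand: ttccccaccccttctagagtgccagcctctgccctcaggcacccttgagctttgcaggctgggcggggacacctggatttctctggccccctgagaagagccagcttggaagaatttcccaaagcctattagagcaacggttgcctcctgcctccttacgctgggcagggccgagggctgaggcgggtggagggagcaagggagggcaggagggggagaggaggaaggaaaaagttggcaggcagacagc
Mfsd2b, chr12:4874360-4874609, minus strand: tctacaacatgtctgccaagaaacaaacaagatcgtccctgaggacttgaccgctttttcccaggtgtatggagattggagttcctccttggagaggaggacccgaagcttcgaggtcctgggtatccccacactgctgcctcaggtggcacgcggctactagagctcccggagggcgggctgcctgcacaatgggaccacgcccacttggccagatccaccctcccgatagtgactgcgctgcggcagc
The Epor window holds 1 GATA motif, TTATCT, at −54 to −49 from the start site, and the Rhag window holds 1, TTATCA, at −31 to −26. The Aqp1 and Mfsd2b windows hold 0. Of 32851 RefSeq promoter windows of this length, 26.5% hold such a motif. The letters CCNCNCCC on either strand, a form of the CACCC box read by Krüppel-like factors, occur 4 times in the Epor window, 3 times in that of Aqp1, 1 time in that of Mfsd2b and 0 times in that of Rhag, counting overlapping matches. They occur in 45.9% of all windows, and 8.19% hold both motifs, as that of Epor does. A match is a run of letters and no evidence of binding.

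Cebpa itself lay between 7.19 and 7.96 on the 11 control arrays and between 4.33 and 5.55 on the 12 knockout arrays, so no array went against its labelled genotype. Noise differed between the groups: the median absolute residual was 0.0683 to 0.0812 on the CMP and GMP arrays and 0.143 to 0.176 on the arrays of MLL-AF9 knockout progenitors. Among L-GMPs it was 0.15 on primary and 0.0942 on secondary control arrays and 0.0776 on secondary knockout arrays. The primary knockout L-GMP array is alone in its group, so its residual of 0 measures no noise. The fit shares 1 estimate of spread. It is cautious for the CMP and GMP arrays and lenient for the MLL-AF9 knockout progenitors and the primary control L-GMPs. Markers of late red cells were flat: Alas2, the first enzyme of haem synthesis in red cells, had group means of 4.77 to 5.25, and Slc4a1, the band 3 anion exchanger, 5.34 to 5.87. Of these 2 late markers 0 passed in any comparison (limma, with 1 at an unadjusted p below 0.05 in knockout L-GMPs against progenitors). The other late markers listed, among them the adult globins, have no value here. In bulk samples of this kind, fewer cells of a type and less RNA per cell cannot be told apart.

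**Figure D1:**
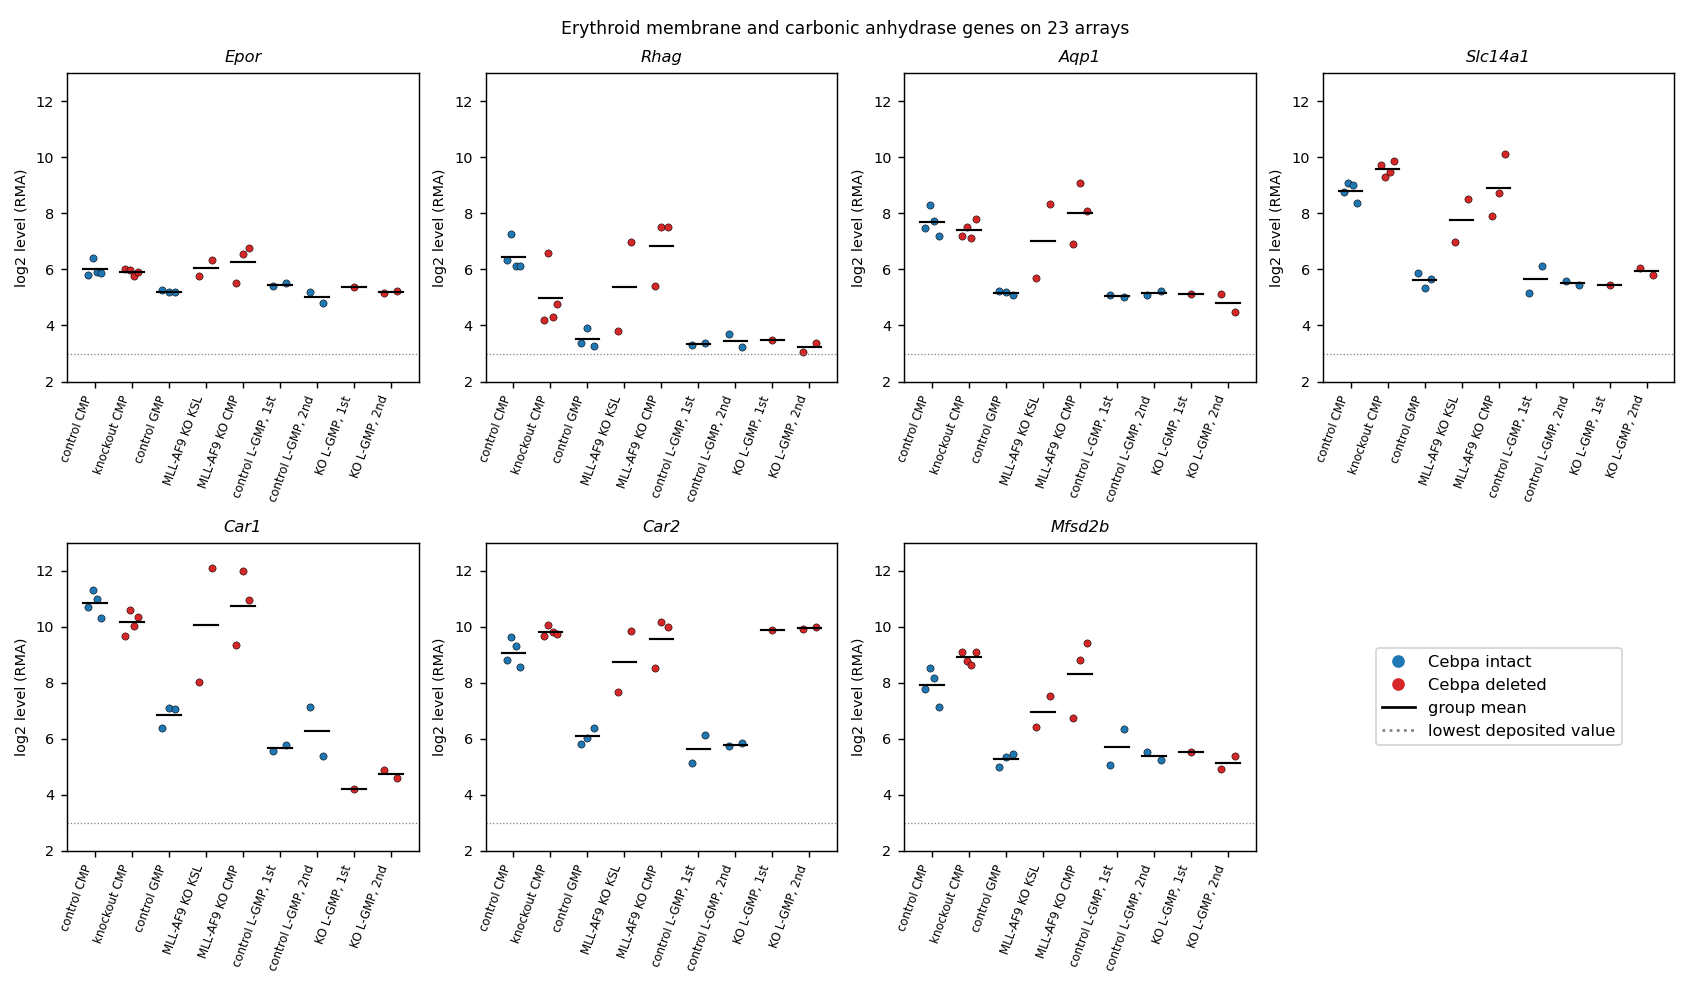
Log2 level (RMA) of each gene on the 23 arrays; each point is 1 array, black bars are group means, blue marks intact and red deleted Cebpa, and KO stands for knockout. In 5 panels the GMP and L-GMP arrays lie below all CMP and KSL arrays; Rhag overlaps at 1 KSL array, and in the Car2 panel the 3 knockout L-GMP arrays stand at 9.88 to 9.99.

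Epor varied least. Control CMPs read 5.79, 6.42, 5.92 and 5.88 and knockout CMPs 6.0, 5.98, 5.75 and 5.90. Control GMPs were lower at 5.26, 5.18 and 5.18. In the MLL-AF9 knockout KSLs Epor was at 5.75 and 6.34, and in the CMPs of such recipients at 5.53, 6.54 and 6.76, the 2 highest levels of all arrays. Control L-GMPs lay at 5.40 and 5.50 (primary) and 5.21 and 4.80 (secondary), and knockout L-GMPs at 5.36 (primary), 5.17 and 5.24 (secondary). All 13 CMP and KSL arrays thus stood above all 10 GMP and L-GMP arrays, though by as little as 5.53 against 5.50. The group means spanned 1.27, against at least 3.23 for each of the other 6 genes.

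Rhag was near the lowest value the deposited data allow, 3, in every GMP and L-GMP sample. Control GMPs read 3.38, 3.91 and 3.27, control L-GMPs 3.29, 3.38, 3.68 and 3.23, and knockout L-GMPs 3.47, 3.06 and 3.38. Control CMPs had 6.33, 7.25, 6.12 and 6.14. Knockout CMPs scattered more widely, at 4.20, 6.59, 4.32 and 4.75, with 3 of 4 arrays below every control. MLL-AF9 knockout KSLs stood at 3.80 and 6.98, so that 1 animal read like a GMP and the other like a CMP. The CMPs of the MLL-AF9 knockout recipients read 5.42, 7.53 and 7.52.

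Aqp1, the water channel, separated the progenitor gates without overlap. Control CMPs read 7.49, 8.31, 7.72 and 7.18, knockout CMPs 7.20, 7.51, 7.12 and 7.81, and GMPs 5.22, 5.20 and 5.10. Control L-GMPs (5.10, 5.01, 5.09 and 5.22) and knockout L-GMPs (5.11, 5.13 and 4.47) sat with the GMPs. Among MLL-AF9 knockout progenitors the KSLs had 5.69 and 8.35 and the CMPs 6.91, 9.09 and 8.09, a spread wider than that between control and knockout CMPs.

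Slc14a1, the urea transporter, was highest in knockout CMPs on average, at 9.71, 9.31, 9.47 and 9.88. Control CMPs read 8.75, 9.08, 9.02 and 8.37, with no array reaching the lowest knockout CMP array. GMPs fell to 5.89, 5.33 and 5.67. The levels in control L-GMPs (5.17, 6.12, 5.58 and 5.45) and knockout L-GMPs (5.43, 6.06 and 5.80) overlapped those of GMPs. MLL-AF9 knockout KSLs read 6.98 and 8.53, and the CMPs 7.90, 8.74 and 10.12.

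Car1 had the widest range of the 7 genes, from 4.20 in the primary knockout leukaemia to 12.08 in 1 KSL sample. Control CMPs read 10.71, 11.30, 10.99 and 10.30 and knockout CMPs 9.65, 10.61, 10.03 and 10.35. Control GMPs were at 6.39, 7.08 and 7.06. Control L-GMPs read 5.57, 5.77, 7.15 and 5.40, and all 3 knockout L-GMP arrays lay below them, at 4.20, 4.88 and 4.59. MLL-AF9 knockout KSLs had 8.04 and 12.08 and the CMPs 9.33, 11.97 and 10.96.

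Car2, in the same gene cluster on chromosome 3, broke from the others in 1 place. It read 8.81, 9.62, 9.30 and 8.57 in control CMPs, 9.67, 10.04, 9.82 and 9.72 in knockout CMPs and 5.83, 6.01 and 6.40 in GMPs, the order seen for Slc14a1. Control L-GMPs were as low, at 5.13, 6.13, 5.74 and 5.84. Knockout L-GMPs were at 9.88, 9.91 and 9.99, inside the range of knockout CMPs. MLL-AF9 knockout KSLs had 7.65 and 9.84 and the CMPs 8.51, 10.17 and 9.99.

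Mfsd2b, the sphingosine 1-phosphate exporter, read 7.79, 8.54, 8.18 and 7.15 in control CMPs and 9.10, 8.79, 8.64 and 9.08 in knockout CMPs. GMPs stood at 5.00, 5.36 and 5.45. Control L-GMPs had 5.07, 6.36, 5.53 and 5.25 and knockout L-GMPs 5.53, 4.91 and 5.39. In MLL-AF9 knockout KSLs Mfsd2b was at 6.43 and 7.51, and in the CMPs at 6.75, 8.81 and 9.40. The lowest of these 5 arrays was barely above the highest L-GMP array.

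Ranked by group mean, the CMP and KSL groups took the upper 4 places for 6 of the 7 genes, with neighbouring groups overlapping, and the GMP and L-GMP groups the lower 5. For 5 genes the 13 CMP and KSL arrays did not overlap the 10 GMP and L-GMP arrays. Rhag overlapped at 1 KSL array, at 3.80, against a GMP array at 3.91, and Car2 overlapped through the knockout L-GMPs. Over the 9 group means, the 15 pairs among the 6 genes without Car2 had Pearson correlations of 0.86 to 0.98. The 6 pairs with Car2 had 0.28 to 0.55, and 0.89 to 0.99 over the 7 groups other than the knockout L-GMPs. These are descriptions over groups that share the division between CMPs and GMPs. The span of group means exceeded 2.05, the 95th percentile over all genes, for 6 of the 7, all but Epor.

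The comparison of control GMPs with control CMPs sets sort gates side by side, and no cells were followed as they matured. Of the 7 genes, 5 were lower in GMPs in limma's test adjusted over all genes (Benjamini-Hochberg), where 0.331% of all genes were lower. The urea transporter Slc14a1 changed by −3.17 ± 0.43 (log2, SE, 3 against 4 arrays, 9.03-fold, adjusted p = 0.00146). Car2 changed by −2.99 ± 0.45 (7.97-fold lower, adjusted p = 0.00342) and Car1 by −3.98 ± 0.74 (15.8-fold lower, adjusted p = 0.0134). The values were −2.64 ± 0.50 for Mfsd2b (adjusted p = 0.0161) and −2.51 ± 0.52 for Aqp1 (adjusted p = 0.0272). Rhag (−2.94 ± 0.70, adjusted p = 0.0601) and Epor (−0.79 ± 0.24, adjusted p = 0.183) did not pass. The Rhag levels in GMPs were above the floor of 3 on every array but close to it, so its difference may be understated. No GMP array reached a CMP array for any of the 7, which held for 7.97% of all genes in this direction and 16.3% in either. The median change, which is that of Rhag, was −2.94, against 0.00 over all genes.

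Slc14a1 and Car2 passed without any 1 array. Aqp1 lost its call on leaving out any of 6 of the 7 arrays (adjusted p up to 0.118 without GMP array 2), Mfsd2b on 5 (up to 0.0773 without GMP array 1) and Car1 on 4 (up to 0.0697 without GMP array 1), while the changes stayed between −2.29 and −4.16. Rhag passed with array weights (adjusted p = 0.00129) and in a fit of the 7 arrays alone (adjusted p = 0.0145).

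Regulators and partners of the erythroid programme moved less uniformly in GMPs. Among 12 erythroid regulators 2 were lower, the repressor Gfi1b (−2.08 ± 0.31) and the master factor Gata1 (−1.83 ± 0.30), with a median of −0.75. At an unadjusted p below 0.05 in limma there were 7 of the 12, all lower. Of 11 globin and haem genes 1 was lower, the erythroid nuclear protein Hemgn (−1.51 ± 0.15). Of 19 other erythroid membrane and surface genes 0 passed (8 at an unadjusted p below 0.05 in limma, all lower). The largest changes were those of the surface protein Ermap (−1.97 ± 0.53, adjusted p = 0.117) and the Rh antigen Rhd (−1.86 ± 0.67, adjusted p = 0.357), partner of Rhag. Among 12 relatives of the transporters, Aqp9 (−1.42 ± 0.28) was lower, and among 12 sphingosine 1-phosphate genes Spns2 (−1.31 ± 0.22), the other dedicated exporter of that lipid. Of 16 genes of EPO receptor signalling and 14 other carbonic anhydrases, 0 passed. Platelet factor 4, Pf4, also fell (−3.73 ± 0.68), 1 of 8 megakaryocyte markers. Of 5 eosinophil markers 4, and 1 of 10 mast cell and basophil markers were higher in GMPs, with 0 of 10 granulocyte-monocyte, 0 of 7 stem cell and 0 of 8 endothelial markers past the threshold. In these last lists, 4 granulocyte-monocyte markers were higher at an unadjusted p below 0.05 in limma (list median 0.53). So were 2 stem cell markers lower, and 0 endothelial markers reached that level. The part of these in the result was not tested.

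**Figure D2:**
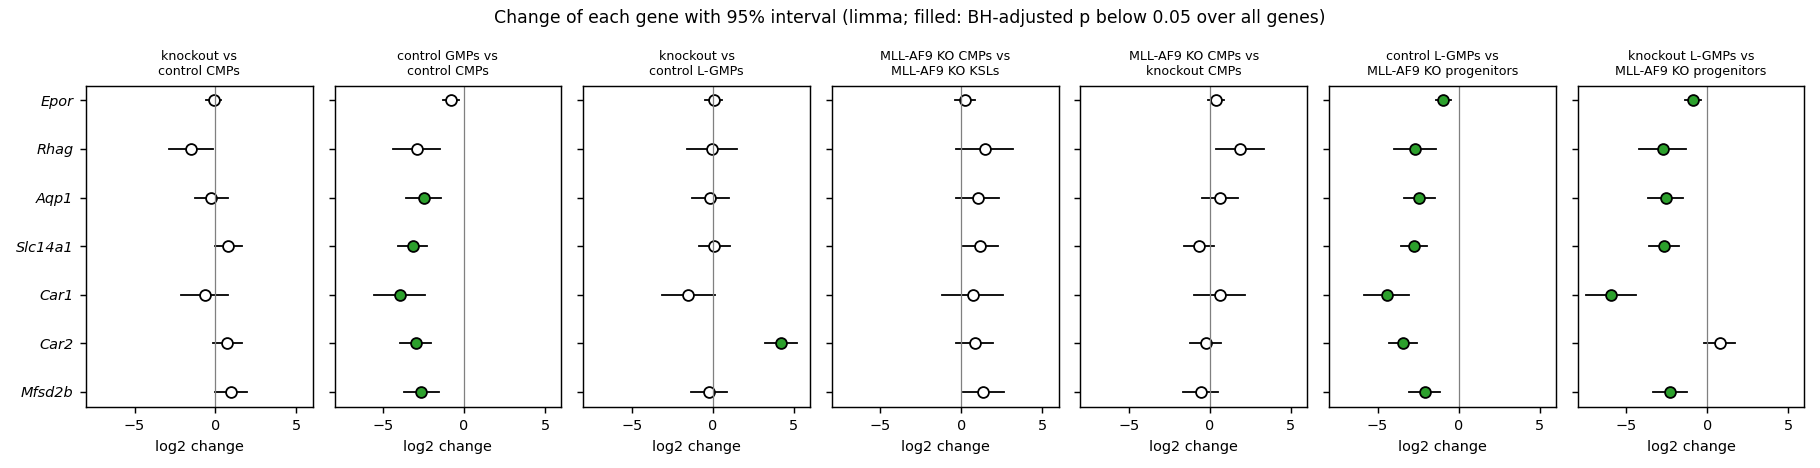
Log2 change of each gene in 7 comparisons, with the 95% confidence interval of limma; filled points passed the adjusted threshold of 0.05 over all genes. Car2 alone passed as higher in knockout than in control L-GMPs (4.20) and does not fall with the other 6 genes in knockout L-GMPs against MLL-AF9 knockout progenitors.

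Loss of C/EBPα in CMPs left the 7 genes without a call, where 4.91% of all genes were called (1 of the 7 at an unadjusted p below 0.05 in limma, Rhag). The changes ran in different directions. Slc14a1 (0.78 ± 0.40, adjusted p = 0.378), Car2 (0.74 ± 0.42, adjusted p = 0.471) and Mfsd2b (0.99 ± 0.47, adjusted p = 0.327) were each above all 4 controls on all 4 knockout arrays, a separation that 9.86% of all genes showed in this direction and 21.1% in either. Rhag stood at −1.49 ± 0.64 (adjusted p = 0.26) and Car1 at −0.66 ± 0.68 (adjusted p = 0.827). Aqp1 (−0.27, 95% interval −1.28 to 0.75) and Epor (−0.09, −0.55 to 0.37) were nearest to no change. The median change was −0.09, against 0.00 over all genes.

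The calls here depend on how spread is estimated. With array weights, which count the quiet CMP arrays for more, 4 of the 7 passed: Slc14a1 (adjusted p = 0.0129), Mfsd2b (adjusted p = 0.0208) and Car2 (adjusted p = 0.031) higher and Rhag (adjusted p = 0.0129) lower. In a fit of the 8 arrays alone Slc14a1 passed (adjusted p = 0.0312). Leaving out any 1 array gave 0 calls.

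In the same comparison 9 of 10 granulocyte-monocyte markers were lower in the knockout, and their mean level per array was 6.10 to 7.19 against 9.46 to 10.01 in controls. Of 5 eosinophil markers 2 were lower, 1 of 7 stem cell markers, Mycn, was higher, and 0 of 8 megakaryocyte (0 at an unadjusted p below 0.05), 0 of 10 mast cell and basophil (4 at an unadjusted p below 0.05, 3 of them lower, list median −0.55) and 0 of 8 endothelial markers (0 unadjusted) passed. The gate marker Fcgr2b was lower as well (−1.15 ± 0.27). Their part in the values above was not tested. Of the erythroid regulators 0 of 12 passed, Zfpm1 having the largest change (0.96 ± 0.32, adjusted p = 0.113), and of the membrane and surface genes 0 of 19. Hemgn rose (1.28 ± 0.14, adjusted p = 4.72e-05), and so did the STAT5 target kinase Pim1 (0.99 ± 0.27, adjusted p = 0.0446), 1 of 16 genes of EPO receptor signalling. Sphingosine 1-phosphate genes changed in 5 of 12 cases. The exporter Spns2 (1.27 ± 0.20) and the receptor S1pr1 (1.36 ± 0.35) rose, while the receptor S1pr3 (−1.21 ± 0.24), the lyase Sgpl1 (−0.90 ± 0.19) and the phosphatase Sgpp1 (−0.73 ± 0.15) fell.

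Knockout and control L-GMPs were compared to see what a leukaemia that arose without C/EBPα expresses. Car2 rose by 4.20 ± 0.47 (log2, SE, 3 against 4 arrays), 18.4-fold, with an adjusted p of 0.000104, and was the 1 of the 7 that passed, where 2.10% of all genes were higher. Group means were 9.91 in the knockout and 5.71 in control L-GMPs. The call held without any 1 of the 7 arrays (adjusted p up to 0.000651, change 3.95 to 4.45). In a fit of these 7 arrays alone the adjusted p was 0.0561. Car1 moved the other way without passing (−1.50 ± 0.76, adjusted p = 0.297), with all knockout arrays below all controls, so that 2 of the 7 genes did not overlap, against 13.9% of all genes. For Epor the change was 0.06 (95% interval −0.46 to 0.57), for Rhag −0.05 (−1.58 to 1.48), for Aqp1 −0.15 (−1.29 to 0.99), for Slc14a1 0.10 (−0.84 to 1.04) and for Mfsd2b −0.22 (−1.32 to 0.89). The 3 knockout arrays are 1 leukaemia, and its mouse received IL-3 and GM-CSF vectors that the controls did not, so genotype, cytokine and the individual leukaemia cannot be told apart.

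The knockout effect on Car2 was larger in L-GMPs than in CMPs by 3.47 ± 0.63 (interaction, adjusted p = 0.00592), and it was the only member that differed so, where 2.80% of all genes did. In the same contrast 9 of 10 granulocyte-monocyte markers were higher (median 3.88), as were Prg2 (2.40 ± 0.62), 1 of 5 eosinophil markers, and the gate marker Cd34 (1.17 ± 0.25), and Cpa3 was lower (−5.95 ± 1.04), 1 of 10 mast cell and basophil markers. Stem cell markers gave 1 higher and 1 lower of 7, and megakaryocyte and endothelial markers 0 of 8 each. Their part in the Car2 difference was not tested, and the limit of 1 cytokine-treated leukaemia holds here too. The Car2 difference passed without any 1 of the 15 arrays (adjusted p up to 0.0156). Car1 (−0.84 ± 1.03), Mfsd2b (−1.20 ± 0.70) and Rhag (1.44 ± 0.97) did not pass.

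Car2 lies in a carbonic anhydrase cluster on chromosome 3 whose RefSeq order is Car13, Car1, Car3, Car2. Car3, a muscle and fat enzyme of low activity, rose beside Car2 in knockout L-GMPs. It read 6.37, 6.92 and 7.20 there and 5.28, 5.70, 5.07 and 5.24 in control L-GMPs (1.40 ± 0.20, adjusted p = 0.000765). It had 5.36 to 6.40 on all other arrays, so the 2 secondary knockout L-GMP arrays stood above every other. Car13 (0.66 ± 0.40, adjusted p = 0.395) and Car1 did not pass. The knockout effect on Car3 also differed between L-GMPs and CMPs, by 1.40 ± 0.26 (adjusted p = 0.00756). Of the 14 carbonic anhydrases outside the 7 genes, Car3 was the 1 that passed. At an unadjusted p below 0.05 in limma there were 5, of which 3 were higher and 2 lower. Among the higher was Car9, which is not in this cluster (1.02 ± 0.29, adjusted p = 0.0674).

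Of the related lists between the leukaemias, where 3.27% of all genes passed in either direction, some gave no call and others 1 or 2. Of the erythroid regulators 0 of 12 passed (Gfi1b −0.48 ± 0.32, adjusted p = 0.437), of the globin and haem genes 0 of 11, and of the transporter relatives 0 of 12. Among membrane genes the glycoprotein Bsg (0.45 ± 0.11) rose, 1 of 19. Pim1 (1.63 ± 0.30) rose among 16 EPO signalling genes. Spns2 rose by 1.55 ± 0.23 (adjusted p = 0.00114) and Sgpp1 fell (−0.73 ± 0.17), 2 of 12. Marker lists gave 0 of 10 for granulocyte-monocyte, 0 of 8 for megakaryocyte and 0 of 5 for eosinophil genes. Of 7 stem cell markers 2, Mecom and Hoxb5, were higher. Of 8 endothelial markers 1 was higher, the endothelial and leukocyte adhesion gene Pecam1 (0.90 ± 0.22). At an unadjusted p below 0.05 in limma there were 4 of the 8, all higher. The mast cell protease Cpa3 was lower (−4.74 ± 0.77), 1 of 10 mast cell and basophil markers. Their part in the rise of Car2 was not tested.

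**Figure D3:**
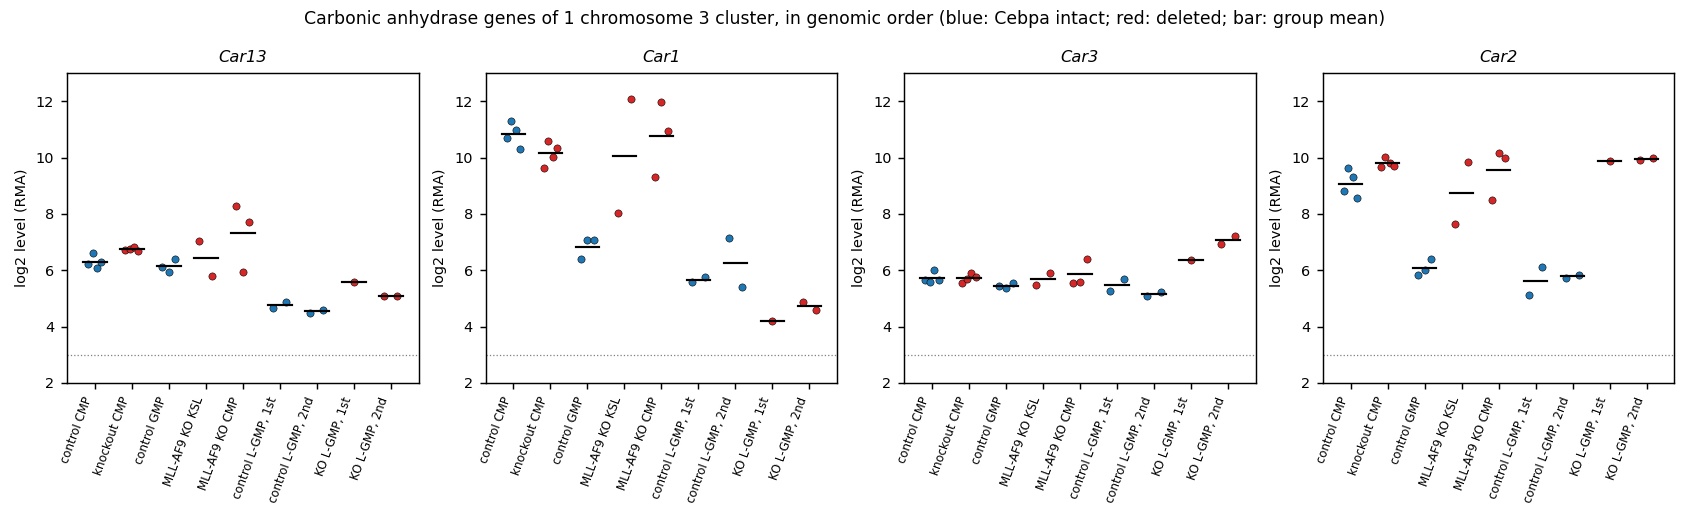
Log2 level (RMA) of the chromosome 3 carbonic anhydrase genes by group, in genomic order; points are arrays and bars group means. In knockout L-GMPs Car2 (9.88 to 9.99) and Car3 (6.37 to 7.20) are above control L-GMPs, and Car1 (4.20 to 4.88) is below them.

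The MLL-AF9 knockout progenitors did not form leukaemia, and both leukaemias were compared with them. The 2 comparisons share these 5 arrays. Of their animals, 2 gave both KSLs and CMPs, so the p-values count arrays and not animals. Control L-GMPs also have intact Cebpa, so genotype, leukaemia and sort gate cannot be told apart. Against the progenitors, control L-GMPs were lower for 7 of the 7 genes, where 10.5% of all genes were lower. Car1 changed by −4.43 ± 0.65 (21.6-fold lower, adjusted p = 0.000194), Car2 by −3.44 ± 0.40 (10.9-fold lower, adjusted p = 2.12e-05) and Slc14a1 by −2.76 ± 0.38 (adjusted p = 0.000102). Rhag (−2.71 ± 0.62), Aqp1 (−2.42 ± 0.46), Mfsd2b (4.27-fold, adjusted p = 0.0036) and Epor (−0.94 ± 0.21) also fell. The arrays of both sides did not overlap for any of the 7 genes, against 4.43% of all genes in this direction and 7.73% in either. Every call held without any 1 of the 9 arrays.

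Knockout L-GMPs were lower than the same progenitors for 6 of the 7, where 5.93% of all genes were lower. The knockout L-GMP arrays all stem from 1 leukaemia, whose mouse received IL-3 and GM-CSF vectors. These p-values therefore count arrays and not leukaemias, and cytokine, leukaemia and sort gate cannot be told apart. Car1 changed by −5.94 ± 0.74 (61.3-fold lower, adjusted p = 4.11e-05). Rhag (−2.76 ± 0.70), Slc14a1 (−2.66 ± 0.43), Aqp1 (−2.57 ± 0.52), Mfsd2b (−2.31 ± 0.50) and Epor (−0.88 ± 0.24) also fell. With Car1, 6 of the 7 did not overlap the progenitor arrays, which 6.01% of all genes showed in this direction and 12.6% in either. Car2 did not pass (0.76 ± 0.45, 95% interval −0.20 to 1.73, adjusted p = 0.325). Epor lost its call without KSL array 2 (adjusted p = 0.0614), which leaves 1 KSL array, or without secondary L-GMP array 1 (adjusted p = 0.052), and Car2 passed as higher without KSL array 2 (1.31, adjusted p = 0.0318). The median changes were −2.71 in control and −2.57 in knockout L-GMPs, against −0.00 and −0.02 over all genes.

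These calls depend on how the spread is estimated. With array weights, Aqp1, Slc14a1, Car1 and Car2 still passed in control L-GMPs and Epor, Rhag and Mfsd2b did not (adjusted p = 0.119, 0.147 and 0.0829). In knockout L-GMPs Epor (adjusted p = 0.0722) and Rhag (adjusted p = 0.0654) lost their calls. Fitted on the compared arrays alone, Car2 passed in control L-GMPs (adjusted p = 0.0364) and 0 of the 7 in knockout L-GMPs, where Car1 was nearest (adjusted p = 0.0861).

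Many other erythroid genes were lower in both leukaemias. Of 12 regulators, 8 were lower in control L-GMPs, led by Bcl11a (−2.36 ± 0.47), Gata1 (−2.20 ± 0.27), Klf1 (−1.80 ± 0.42) and Gfi1b (−1.74 ± 0.27). In knockout L-GMPs 8 were lower, with Gata1 at −2.62 ± 0.30 and Bcl11a at −2.58 ± 0.53, and Lmo2 was higher (1.40 ± 0.44). Of 19 membrane and surface genes 7 were lower in control L-GMPs, among them the transferrin receptor Tfr2 (−1.98 ± 0.25), the Kell antigen gene Kel (−1.57 ± 0.39), Gypc (−1.41 ± 0.29) and Icam4 (−1.36 ± 0.23). In knockout L-GMPs 5 were lower, led by Gypc (−1.69 ± 0.32), and Bsg was higher (0.42 ± 0.10). Among globin and haem genes, Hemgn (−1.82 ± 0.13), Cpox (−1.42 ± 0.41) and Alad (−1.36 ± 0.18) fell in control L-GMPs while the mitochondrial iron importer Slc25a37 rose (1.23 ± 0.25), 4 lower and 2 higher of 11. The counts were 3 lower and 1 higher in knockout L-GMPs.

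Of 16 genes listed under EPO signalling 8 were lower in control L-GMPs. They were led by the receptor kinase Kit (−2.46 ± 0.29), which is also a marker of the sort gates. The feedback inhibitors Cish (−2.34 ± 0.49) and Socs2 (−1.12 ± 0.30), and Pim1 (−1.78 ± 0.26), were lower too. In knockout L-GMPs 6 were lower, led by Cish (−2.01 ± 0.55). Of 14 other carbonic anhydrases 2 were lower and 1 higher in each comparison. Car13 fell in both (−2.21 ± 0.35 and −1.55 ± 0.39), and Car3 rose in knockout L-GMPs (0.95 ± 0.19). Relatives of the transporters gave 2 lower of 12 in each, Aqp9 (−2.07 ± 0.25 and −2.12 ± 0.28) and Aqp11 (−1.67 ± 0.35 and −1.77 ± 0.40). Spns2 fell in control L-GMPs (−1.39 ± 0.19). All 10 granulocyte-monocyte markers were higher in both leukaemias, with mean levels of 9.13 to 10.04 against 4.99 to 6.15, and 3 of 8 megakaryocyte markers were lower in both. In control and knockout L-GMPs, 3 and 1 of 5 eosinophil markers were higher, and 2 and 3 of 10 mast cell and basophil markers were lower (list medians −0.94 and −1.62). Stem cell markers gave 1 lower of 7 in control L-GMPs and 2 lower and 1 higher in knockout L-GMPs, and endothelial markers 0 and 2 higher of 8. The gate markers Cd34 (0.84 ± 0.16 and 1.5 ± 0.18), Fcgr3 (3.6 ± 0.53 and 3.21 ± 0.60) and Fcgr2b (2.02 ± 0.26 and 2.35 ± 0.29) were higher in both comparisons, whose sides were sorted by different gates. The gate marker Kit was lower in both (−2.46 ± 0.29 and −1.795 ± 0.33). The part of these cell types in the result was not tested.

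Within the knockout recipients without leukaemia, 0 of the 7 genes passed between CMPs and KSLs, where 3.32% of all genes did (2 of the 7 at an unadjusted p below 0.05 in limma, Slc14a1 and Mfsd2b). The changes were positive, from 0.23 ± 0.28 for Epor to 1.44 ± 0.83 for Rhag, with a median of 1.01 against 0.00 over all genes. Of the related genes, the lyase Sgpl1 (−1.08 ± 0.24) and the granulocyte marker Csf3r (−0.92 ± 0.19) were lower in CMPs, and 0 of 12 regulators and 0 of 19 membrane and surface genes passed. The animals stood apart. The first animal was below the second in KSLs and in CMPs for 7 of 7 genes, which held for 25.6% of all genes. For Car1 the difference was 4.03 in KSLs and 2.64 in CMPs, for Rhag 3.18 and 2.12, and for Epor 0.59 and 1.02. Within each animal, CMPs were above KSLs for 6 of 7 genes, against 47.3% and 48.9% of all genes. Epor in the first animal (−0.23) and Car1 in the second (−0.11) were the exceptions.

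Mast cell and basophil markers took the opposite order in these animals. The mean level of the 10 measured was 9.46 in KSLs and 8.74 in CMPs of the first animal. It was 5.46 and 5.51 in the second animal and 5.73 in the CMPs of the last. Megakaryocyte markers were at 6.27 to 6.88 in the first 2 animals and 8.97 in the last. The part of these cells in the low erythroid levels of the first animal was not tested. Klf1, the Krüppel-like factor of red cells, was lower in the first animal (5.60 and 5.98, against 7.21 and 8.33), while Gata1 was level (7.41 and 7.56, against 7.30 and 7.86). Without KSL array 2 the KSL side is 1 array, that of the first animal, whose spread is assumed to be that of the other groups. In that fit Rhag (3.03), Aqp1 (2.34), Slc14a1 (1.94), Car1 (2.71) and Car2 (1.91) were called higher in CMPs, and without CMP array 1 Mfsd2b was (2.13, adjusted p = 0.023).

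**Figure D4:**
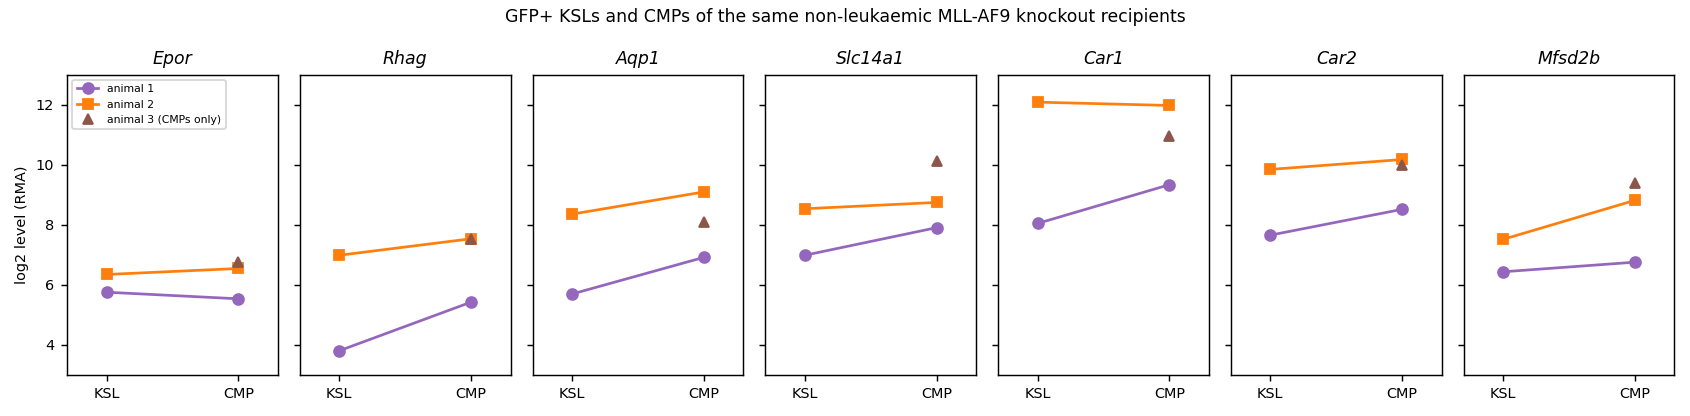
Log2 level (RMA) in KSLs and CMPs of the MLL-AF9 knockout recipients without leukaemia; lines join samples of 1 animal, and the triangle is the animal with CMPs only. The first animal lies below the second for all 7 genes in both cell types, and 6 of 7 lines rise from KSL to CMP in each animal.

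MLL-AF9 knockout CMPs were set against knockout CMPs without the fusion to read the effect of the fusion and of transplantation together. Of the 7 genes 0 passed, where 4.88% of all genes did (1 at an unadjusted p below 0.05 in limma, Rhag). Rhag was at 1.86 ± 0.70 (adjusted p = 0.145) and Slc14a1 at −0.67 ± 0.43 (adjusted p = 0.414). The remaining 5 lay between −0.58 (Mfsd2b) and 0.62 (Aqp1). With both arrays of the first animal left out, a choice made after seeing the data, 3 passed as higher: Rhag (2.56, adjusted p = 0.0118), Epor (0.74, adjusted p = 0.0149) and Aqp1 (1.18, adjusted p = 0.04). Among the related genes the haem enzyme Alad (0.82 ± 0.20) and Aqp9 (1.13 ± 0.28) rose, 0 of 12 regulators and 0 of 19 membrane genes passed, and of 12 sphingosine 1-phosphate genes Spns2 (−0.90 ± 0.22) and S1pr1 (−1.70 ± 0.38) fell and Sgpp1 rose (0.76 ± 0.17). The gate markers Cd34 (−1.83 ± 0.18) and Fcgr3 (−2.49 ± 0.60) were also lower, so the CMP gates differed in the RNA of their own markers. Of 10 granulocyte-monocyte markers 4, led by Mpo (−3.97 ± 0.60), and the endothelial marker Tie1 were lower, and their part was not tested.

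The control CMP arrays differed among themselves in an ordered way across the 7 genes. Array 2 was the highest of the 4 for 7 of 7 genes, against 26.4% of all genes, and array 4 the lowest for 5, against 24.7%. The mean of 10 granulocyte-monocyte markers was lowest on array 2, at 9.46, and highest on array 4, at 10.01, and erythroid regulators had means of 8.18 and 7.58. In knockout CMPs no array led for more than 3 of the 7.

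Genes whose group means ran most like those of each member, by Pearson correlation over 9 groups among 5146 genes, those whose means span at least 1 after unnamed gene models, microRNAs, olfactory receptors and immune receptor segments were set aside, were as follows. For Epor they were Abcb4 (0.98), Klf1 (0.96) and Gfi1b (0.96). For Rhag they were Ces2g (0.99), Mboat2 (0.98) and Scd1 (0.98), and for Aqp1 Timp3, Kel and Aldh1a1 (all 0.99). Slc14a1 and Mfsd2b were each among the other's closest 3 (0.98), together with Plod2. For Car1 they were Mfge8 (0.98), Cers4 (0.97) and Kel (0.97). Car2 had a different company, with Ssbp2 (0.95), Rab37 (0.95) and Spns2 (0.92). The average of the 7 genes ran closest to Aldh1a1 and Kel (both 0.99), Abcb4 (0.98), Klf1 (0.97) and Casp12 (0.97). The likeness is over 9 means that share the CMP to GMP division, and says nothing of common control.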

How the data were processed

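RNA of sorted cells was amplified with a kit for small inputs and hybridised to Affymetrix arrays, per the labels' protocols. For 34760 probe sets the authors deposited log2 values, and the submitters' processing notes name RMA for them, with no version given. RMA removes background, gives all arrays 1 distribution and combines the probes of a set, which can compress the changes of dim genes. The deposited log2 values have a floor of 3 and reach 13.64. The number of arrays limits their precision. No 2 arrays held identical values (highest correlation 0.991).

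The platform's annotation gave a single symbol for 21640 probe sets, more than 1 for 1321 and none for 11799. RefSeq (GRCm38.p6) held 21553 of the single symbols. The probe set with the highest mean stood for a gene. A model of 9 group means was fitted to all 23 arrays with limma 3.58.1 in R 4.3.3 (empirical Bayes with a trend). A gene was called at a Benjamini-Hochberg adjusted p below 0.05 over 19937 genes. L-GMP and progenitor groups entered with equal weight per group. The code was tested on simulated data. Alternatives were median centring, a filter on dim genes, array weights, the compared groups alone, the mean over probe sets, no trend, replicate or source-animal blocks, and each array left out. KSL and CMP arrays 1 and 2 of the MLL-AF9 knockout recipients pair by animal, as the labels name it, and deviate together (correlations 0.45 and 0.26). Other shared replicate numbers did not pair (−0.21 to 0.18). Scan dates were not used here, so batch and experiment cannot be told apart between transplanted and untreated marrow.

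The members, the lists and the naming rule were chosen with earlier results of these data known. The text names the 7 genes, Cebpa, up to 4 called genes per list and comparison or up to 2 uncalled ones, and the genes most alike by group means. Klf1 and Gata1 in the animals, and Car9 between the leukaemias, were chosen after their values were seen.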

Additional observations from a re-analysis of the deposited data

Results flagged for a closer look

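The difference in Car2 between knockout and control arrays was larger in L-GMPs than in CMPs, by 3.47 (log2), with an adjusted p of 0.00592 for the interaction in limma. The 3 knockout L-GMP arrays are 1 leukaemia of a mouse given IL-3 and GM-CSF vectors, so this p counts arrays and not leukaemias, and genotype, cytokine and leukaemia cannot be told apart. In L-GMPs it was higher in 3 of 3 knockout arrays than in any control, and in CMPs it was higher on 4 of 4. Among 14 sets of 4 arrays checked, 2 groups for each of the 7 genes, 0 held an array that stood apart by Dixon's criterion. Sets of 4 are small for this criterion, so an array that stands apart can be missed. Array 2 of the control CMPs was the highest of its group for 7 of 7 genes, against 26.4% of all genes.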

How the results depend on the processing

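Of 938 recomputed values of the 7 genes, 25 changed sign, 0 of them of a change past the threshold as reported. With array weights the counts were 3762 for knockout against control CMPs (979 as reported), 1257 for GMPs against CMPs (209), 3 for MLL-AF9 knockout CMPs against KSLs (662), 335 against knockout CMPs (972), 1250 for control L-GMPs against progenitors (3780) and 1280 for the difference of knockout effects (558). Fitted on the compared groups alone they were, in that order, 3220, 643, 0, 443, 493 and 1582, with 11 between L-GMPs of both genotypes (651) and 347 between knockout L-GMPs and progenitors (2632). Of the 7 genes, array weights called 4 between CMPs and 4 in control L-GMPs against progenitors. The groups alone called 1, 1, and 0 in both knockout L-GMP comparisons. The source animal as a random block gave 385 between L-GMPs and 1033 between MLL-AF9 CMPs and KSLs. With the replicate number as a block, 612 genes were called for MLL-AF9 against knockout CMPs and 340 for the difference, Epor between MLL-AF9 CMPs and KSLs was −0.012, Aqp1 in GMPs lost its call (adjusted p = 0.0675) and Car2 in knockout L-GMPs against progenitors gained one (adjusted p = 0.0325). Without both arrays of the first MLL-AF9 animal, chosen after seeing the data, 3 of the 7 were called between MLL-AF9 and knockout CMPs, where Car2 was 0.27 and Mfsd2b 0.21, Car1 between MLL-AF9 CMPs and KSLs was −0.61 and Car2 in knockout L-GMPs against progenitors −0.046. The cause was not tested.

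With each array left out in turn, the genes called ranged from 530 to 817 between CMPs, 70 to 196 for GMPs, 409 to 2449 between L-GMPs, 355 to 2850 for MLL-AF9 CMPs against KSLs, 490 to 2035 against knockout CMPs, 2833 to 4922 and 1947 to 3276 for control and knockout L-GMPs against progenitors, and 383 to 1603 for the difference. Of the 7 genes, 0 to 5 were called for MLL-AF9 CMPs against KSLs, 0 to 1 against knockout CMPs, 2 to 5 in GMPs and 5 to 6 in knockout L-GMPs against progenitors. Signs turned for Epor (−0.16 to 0.048) between CMPs, and between L-GMPs for Epor (−0.049 to 0.16), Rhag (−0.18 to 0.059), Aqp1 (−0.31 to 0.015), Slc14a1 (−0.14 to 0.35) and Mfsd2b (−0.54 to 0.11). They turned for Aqp1 in the difference (−0.093 to 0.28), for Epor (−0.065 to 0.61), Rhag (−0.15 to 3.03), Aqp1 (−0.32 to 2.34), Car1 (−1.32 to 2.71) and Car2 (−0.28 to 1.91) between MLL-AF9 CMPs and KSLs, and for Car1 (−0.015 to 1.31), Car2 (−0.56 to 0.27) and Mfsd2b (−1.12 to 0.21) against knockout CMPs.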

Other observations

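Spns2, the sphingosine 1-phosphate exporter of endothelium, was higher in both knockout comparisons (adjusted p = 0.00164 in CMPs and 0.00114 in L-GMPs, limma). The knockout L-GMP arrays all stem from the same leukaemia, of a mouse given IL-3 and GM-CSF vectors. Genotype, cytokine and leukaemia cannot be told apart there, and that p counts arrays. Mfsd2b, the exporter of red cells, did not pass in either comparison. In CMPs it lay in the same direction as Spns2 (0.99 ± 0.47, 4 of 4 knockout arrays above all controls) and passed with array weights (adjusted p = 0.0208). Whether the 2 genes differ was not tested. The level of Spns2 was 7.48 ± 0.18 (log2, SD, n = 4) in control CMPs, 8.75 ± 0.28 (n = 4) in knockout CMPs and 6.17 ± 0.09 (n = 3) in GMPs. Control L-GMPs had 6.28 ± 0.73 (n = 2) in primary and 5.98 ± 0.24 (n = 2) in secondary recipients. Knockout L-GMPs stood at 7.50 in the primary and 7.87 ± 0.38 (n = 2) in secondary recipients, with no array of either genotype overlapping the other. For Mfsd2b the difference between the leukaemias was −0.22 (95% interval −1.32 to 0.89).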
